A study of Bos taurus with 46 samples.

Results

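The genes described here are 40 members of a group of nuclear splicing factors, the SR proteins and the proteins of nuclear speckles, measured in the circulating leukocytes of pregnant heifers. The group was listed as 41 gene symbols, of which 40 were found among the 30675 genes of the RefSeq count table, and LUC7L2 was not analysed here. The group was chosen by the D105 levels of 2 of its members, RSRC1 and SRPK2, which stood high in heifers 604 and 664. Every contrast of these 2 heifers with the rest on D105 is therefore given as a description. The D55 values of the same heifers and the relation to library composition in the other heifers were not used to choose the group. Neither were the comparisons by day and by type of pregnancy, apart from those with IVP-LOS on D105. Those include the D105 libraries of 604 and 664, so the choice of the group bears on them.

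Angus crossbred heifers in the second year of life carried fetuses from artificial insemination (AI, 8 heifers) or from transfer of in vitro produced embryos (IVP). The IVP pregnancies were divided by fetal weight at collection into IVP-Normal (6 heifers) and IVP-LOS (9 heifers), the latter with a fetus at or above the upper weight limit set by the AI fetuses, the defining sign of large offspring syndrome. Each IVP heifer had received 2 embryos, sired by a Brahman bull, and the heaviest fetuses of the IVP-LOS group were those of heifers 604 and 664. Blood was taken from each heifer on D55 and D105, and RNA of the white cells of the buffy coat was sequenced, giving 1 library per heifer and day (46 libraries). All heifers had been synchronised before breeding with a progesterone device and prostaglandin. A library set labelled BACKUP held the samples taken on D105 from AI and IVP-LOS heifers, and a set labelled New held all others, so that day and set cannot be told apart in these 2 groups.

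SR proteins carry RNA-binding domains and a tail rich in arginine and serine. They bind to exons of the pre-mRNA and help the spliceosome to find the splice sites. Kinases of the SRPK and CLK families phosphorylate these tails, which moves the proteins into the nucleus and releases them from nuclear speckles, the bodies in which splicing factors are stored between rounds of use. Large proteins such as SON and SRRM2 form the core of the speckles, while U2AF, the LUC7-like proteins and several RBM proteins take part in recognising the ends of introns. Some transcripts of this family are known to retain introns or to carry exons that lead to decay, and the level of a gene count does not tell these forms apart.

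Values are CPM, read counts scaled to a common library size, after TMM normalisation, which corrects for differences in composition. Each of the 40 genes passed the filter on low counts in each comparison. RSRC1 had the lowest counts, with up to 866 reads in a library, and SRRM2 the highest, with up to 63356. Across the 21 heifers other than 604 and 664 on D105, the SD of log2(CPM + 1) had a median of 0.15 over the 40 genes, against 0.24 over all 16841 genes tested. RBM39 was the steadiest (SD 0.070) and LUC7L the most variable (SD 0.33), followed by LUC7L3 (SD 0.30) and SRPK2 (SD 0.27). In bulk samples, a change in the share of one cell type and a change in RNA per cell cannot be told apart.

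The libraries of 604 and 664 stood apart on D105 in several measures. They had 18692653 and 19641136 reads on RefSeq genes, below the range of the other 21 heifers (21775579 to 24473385). Reads that fell on no RefSeq gene made up 38.0% in 604 and 36.1% in 664, against 23.9 to 30.5% in the others. In the Ensembl table of the same reads this order was turned: 604 and 664 had the lowest shares on no gene (24.8% and 25.6%, others 28.3 to 33.1%). The most counted Ensembl gene, ENSBTAG00000043561, took 8.82% and 7.01% of the Ensembl reads in 604 and 664, against 1.81 to 4.76% in the others. On D55 both heifers were within the range of the other 21 on these shares.

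Markers of cell types differed as well. On D105 the summed level of 4 neutrophil markers was 67.2 CPM in 604 and 84.3 CPM in 664, below the other heifers (166 to 5362 CPM). The 4 monocyte markers summed to 109.1 and 81.1 CPM, also below the others (189 to 1700 CPM). The 4 platelet markers reached 2596 CPM in 604, above the others (124.7 to 713 CPM), while 664 was inside that range at 333 CPM. The 4 red cell markers gave 603 CPM in 604 (others 11.3 to 152 CPM) and 140 CPM in 664, and the 5 B cell markers 4552 and 5783 CPM (others 1369 to 5344 CPM). The T cell markers, at 934 and 642 CPM, stayed within the range of the others (621 to 1556 CPM). The 3 NK cell markers were at 70.4 CPM in 604, within the others (27.3 to 120.6 CPM), and at 24.8 CPM in 664, just below them. The part of these differences in the values below was not tested.

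**Figure D1:**
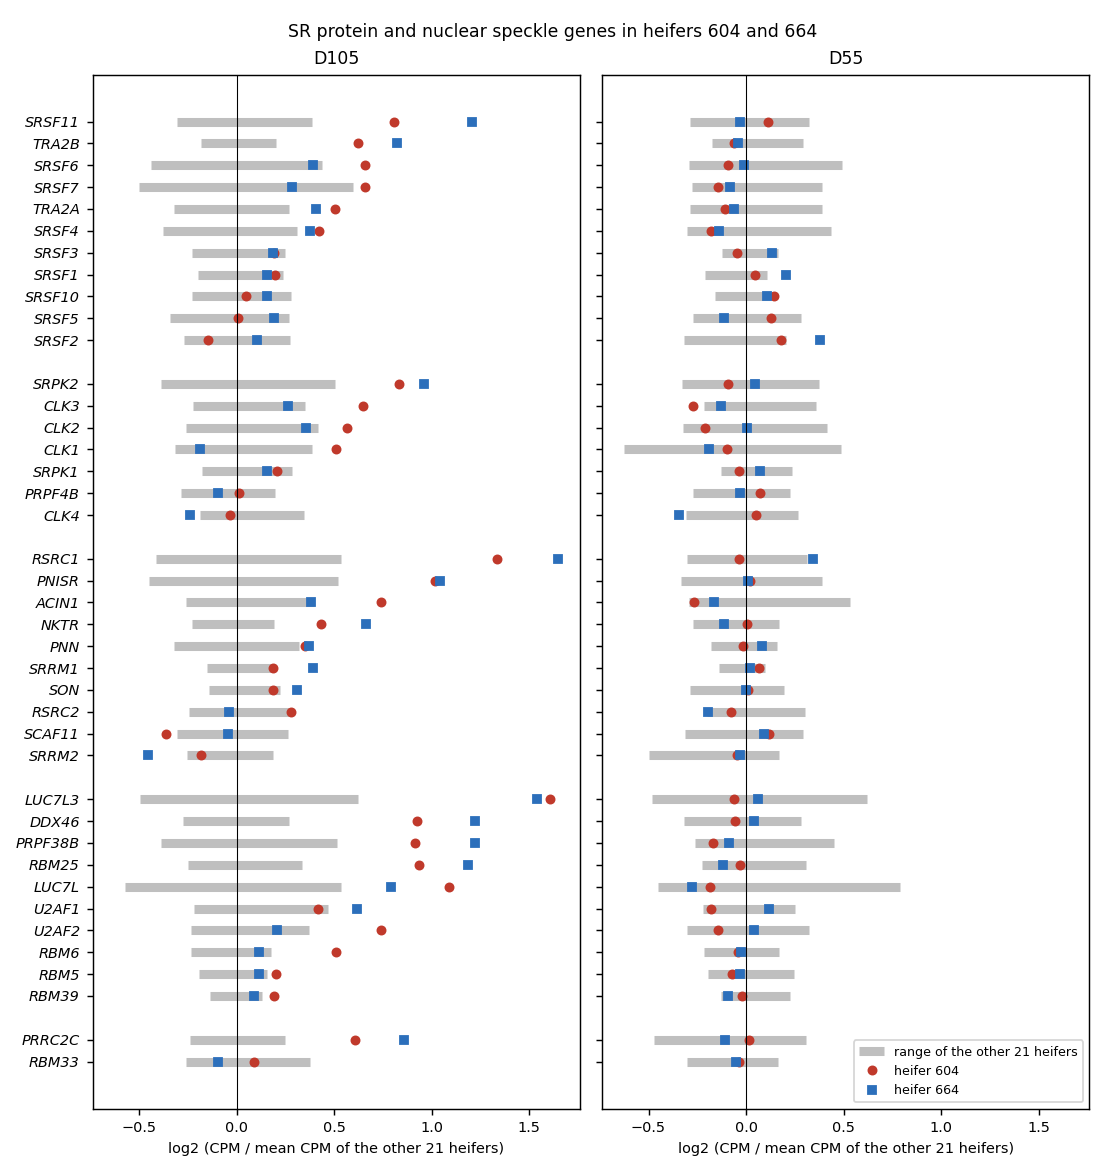
Levels of the 40 genes in heifers 604 (red circles) and 664 (blue squares) on D105 (left) and D55 (right), as log2 of the ratio to the mean CPM of the other 21 heifers, whose range is the grey bar. Genes are ordered by role, from SR proteins at the top to kinases, speckle proteins, splice site factors and other proteins. On D105 both heifers lie above the grey bar for 16 genes, and on D55 for 0 genes.

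On D105, 34 of the 40 genes had a positive log2 fold change in 604 and 664 against the other 21 heifers, with a median of 0.39, against a median of -0.02 over all genes tested. Both heifers were above the whole range of the others for 16 of the 40 genes, and below it for 0. Among all genes tested, 7.97% lay with both heifers above and 6.21% with both below. With an edgeR FDR of at most 0.05, 21 of the 40 genes were higher in the pair and 1 was lower, against 11.6% and 9.48% of all genes. As the group was chosen by this contrast, nothing is read from these counts. The mean of log2(CPM + 1) over the 40 genes was 8.536 in 604 and 8.504 in 664, above the other 21 heifers (7.90 to 8.24).

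The 11 SR proteins were unequal. SRSF11, an SR-related protein of the early spliceosome, reached 1153 CPM in 604 and 1523 CPM in 664, while the other heifers lay between 533 and 862 CPM (median 672). TRA2B, which binds purine-rich exonic enhancers, was at 348 and 399 CPM (others 199 to 259 CPM, median 222). SRSF4, a long member of the family, and TRA2A, the paralog of TRA2B, were also above the range of the others in both heifers, by small margins. SRSF6 and SRSF7 were above it only in 604. SRSF1, the founding member, was inside the range at 422 and 409 CPM (others 321 to 434 CPM), as were SRSF2, SRSF3, SRSF5 and SRSF10. The log2 fold changes of the 11 genes ran from -0.05 for SRSF2 to 0.99 for SRSF11, with a median of 0.36.

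Among the 7 kinases, only SRPK2 was above the range of the others in both heifers. SRPK2, which phosphorylates SR proteins in the cytoplasm, was at 222 CPM in 604 and 243 CPM in 664, against 95.4 to 177 CPM in the others (median 117.1). Its paralog SRPK1 was inside the range, at 235 and 227 CPM (others 180 to 249 CPM). The CLK kinases act on SR proteins in the nucleus, and 3 of them, CLK1, CLK2 and CLK3, were above the range of the others in 604 but not in 664. CLK2 was at 248 CPM in 604 and 215 CPM in 664 (others 140 to 224 CPM), and CLK3 at 180 and 138 CPM (others 98.2 to 146 CPM). CLK1 was at 465 CPM in 604 but at 287 CPM in 664, with the others between 263 and 427 CPM. CLK4 went the other way, at 120 CPM in 664, just below the others (124.6 to 181 CPM), and at 139 CPM in 604, within them. PRPF4B, a kinase of the spliceosome itself, was inside the range in both.

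The 10 speckle and RS-rich proteins held both the gene with the second largest positive value of the 40 and the gene with the largest negative one. RSRC1, an RS-rich protein linked to the choice of the 3′ splice site, was at 38.1 CPM in 604 and 47.3 CPM in 664, against 11.4 to 21.9 CPM in the others (median 14.3). PNISR, a speckle protein with an RS domain, was at 585 and 595 CPM (others 212 to 415 CPM, median 288). NKTR, a cyclophilin with an RS tail, was at 290 and 340 CPM (others 183 to 245 CPM). SRRM2, a core protein of the speckle, was at 2157 CPM in 604, within the others (2053 to 2787 CPM), and at 1787 CPM in 664, below them. SON, the other core protein, was at 818 and 890 CPM (others 651 to 839 CPM), so that only 664 was outside. SCAF11, which binds the tail of RNA polymerase II, was below the range in 604 alone, at 173 CPM (others 180 to 268 CPM).

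The factors of splice site recognition had the largest values. LUC7L3, a protein associated with the U1 particle, which reads the 5′ splice site, was at 834 CPM in 604 and 797 CPM in 664, against 195 to 423 CPM in the others (median 272). Its relative LUC7L was at 317 and 258 CPM (others 100.2 to 216 CPM). DDX46, the helicase that helps the U2 particle onto the branch point, was at 371 and 456 CPM (others 161 to 236 CPM). PRPF38B, a factor of the precatalytic spliceosome, was at 396 and 491 CPM (others 161 to 300.1 CPM). RBM25, a partner of LUC7L3 at the U1 particle, was at 656 and 781 CPM (others 289 to 433 CPM). Each of these 5 genes was above the whole range of the other heifers in both 604 and 664. U2AF1 and U2AF2, the subunits that read the 3′ splice site, were each above the range of the others in 1 heifer. U2AF1 was at 115.9 CPM in 664 and at 100.97 CPM in 604 (others 65.0 to 105 CPM), and U2AF2 at 552 CPM in 604 and 380 CPM in 664 (others 280 to 426 CPM).

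The last 2 genes are RNA-binding proteins outside these roles. PRRC2C, a large protein of stress granules, was at 813 CPM in 604 and 969 CPM in 664, above the others (453 to 634 CPM, median 535). RBM33 was inside the range of the others at 333 and 293 CPM.

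As log2 fold changes with their standard errors, the 5 largest of the 40 were LUC7L3 (1.54 ± 0.18), RSRC1 (1.46 ± 0.17), DDX46 (1.05 ± 0.10), PRPF38B (1.04 ± 0.14) and RBM25 (1.03 ± 0.11). SRPK2 had 0.86 ± 0.17 and PRRC2C 0.70 ± 0.10. At the other end were SRRM2 (-0.35 ± 0.10), SCAF11 (-0.23 ± 0.13), CLK4 (-0.17 ± 0.11), PRPF4B (-0.08 ± 0.11) and SRSF2 (-0.05 ± 0.11). The 2 heifers were not alike in every gene. Heifer 604 alone was above the range of the others for 11 genes, and 664 alone for 2, SON and U2AF1. The share of all genes with only 1 of the 2 heifers outside was not computed, so nothing is read from these counts. With 604 left out, the median log2 fold change of the 40 genes was 0.30 in place of 0.39, and with 664 left out it was 0.43. Against the other 7 IVP-LOS heifers alone, 14 of the 40 genes passed the threshold in place of 22. Over all genes, 1466 of 16200 passed in place of 3550 of 16841.

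Other genes of the splicing machinery are given for the same contrast, again as a description, beside the 11.6% of all genes that were higher and the 9.48% that were lower. Of 45 core spliceosome genes, 16 were higher and 1 was lower in the pair on D105, with a median log2 fold change of 0.22. SNRPD3, a protein of the Sm ring, had the largest value (0.82 ± 0.16), followed by SNRNP70, a U1 protein (0.76 ± 0.17), and the helicase DHX8 was the lower one (-0.60 ± 0.16). Of 16 hnRNP genes, whose proteins coat pre-mRNA and often act against SR proteins, only HNRNPM passed (0.32 ± 0.08), and their median was 0.04. Of 16 genes of nonsense-mediated decay and the exon junction complex, 4 were higher, led by UPF3B (1.16 ± 0.14) and UPF2 (1.01 ± 0.10), and their median was 0.08.

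On D55, 604 and 664 were not outside the other heifers together for any gene of the group. None of the 40 genes was called by edgeR, with 0.0179% of all genes called, and 1 of the 40, SRSF2, had an unadjusted p under 0.05. DESeq2 also called 0 of them, beside 5 of all 16733 genes. The median log2 fold change was -0.05, and 13 of the 40 genes were above 0. Both heifers lay above the other 21 for 0 genes and below them for 0, against 0.341% and 0.502% of all genes. RSRC1 was at 15.8 CPM in 604 and 20.5 CPM in 664 (others 13.1 to 20.1 CPM), SRPK2 at 77.6 and 85.2 CPM (others 65.9 to 107.1 CPM) and PRRC2C at 534 and 489 CPM (others 381 to 652 CPM). Of these values, only that of RSRC1 in 664 lay above the others, by a small margin. In 5 other genes 1 of the 2 heifers lay outside, a count for which the share of all genes was not computed. SRSF2 in 664 was at 530 CPM (others 327 to 469 CPM), SRSF1 in 664 at 430 CPM (others 322 to 402 CPM) and SRSF10 in 604 at 283 CPM (others 230 to 280 CPM). CLK3 in 604, at 90.0 CPM, and CLK4 in 664, at 111.3 CPM, were just below the others. SRSF2, an SR protein that also acts in transcription, had a log2 fold change of 0.27 ± 0.10 (edgeR adjusted p = 0.947), and SRSF10, a splicing repressor when dephosphorylated, 0.12 ± 0.07 (adjusted p = 0.947). The mean of log2(CPM + 1) over the 40 genes was 8.02 in 604 and 8.04 in 664, inside the range of the others (7.90 to 8.29).

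**Figure D2:**
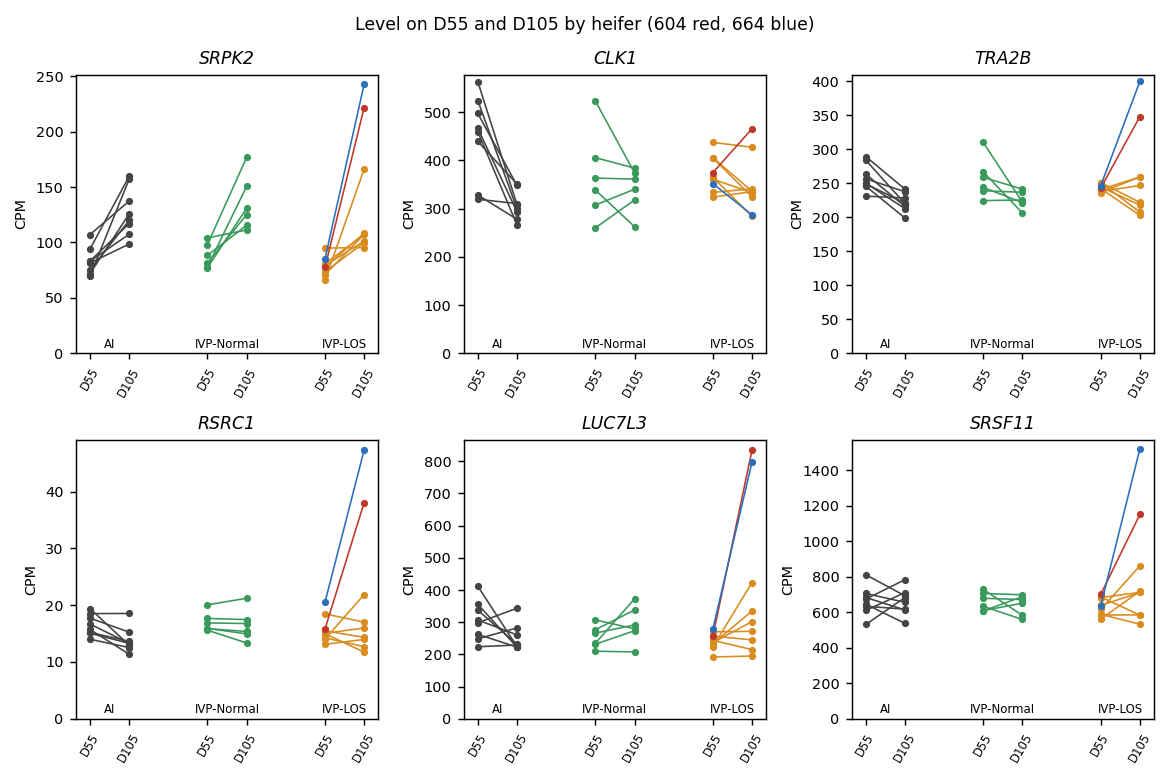
CPM of 6 genes on D55 and D105, with 1 line per heifer, grouped by type of pregnancy. Heifers 604 (red) and 664 (blue) belong to IVP-LOS. The lines of SRPK2 go up in each of the 23 heifers and those of CLK1 and TRA2B go down in each of the 8 AI heifers. For RSRC1, LUC7L3 and SRSF11 the D105 points of 604 and 664 lie above all others.

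SRPK2 was higher on D105 than on D55 in 23 of 23 heifers. In the AI group SRPK2 went from 69.6 to 107.1 CPM on D55 (median 82.3) to 98.6 to 160 CPM on D105 (median 122.8), a log2 fold change of 0.63 ± 0.11 (edgeR adjusted p = 0.000888). In the IVP-Normal group it went from 77.4 to 104.1 CPM (median 85.1) to 111.3 to 177 CPM (median 127.9), a change of 0.61 ± 0.12 (adjusted p = 0.0148). In both groups it rose in every heifer, 8 of 8 and 6 of 6, and in the IVP-Normal group the ranges of the 2 days did not overlap. In the IVP-LOS group its change of 0.82 ± 0.18 was over all 9 heifers and did not pass the threshold (adjusted p = 0.0551). Its difference between the days was 1.501 in 604, 1.498 in 664 and 0.0073 to 1.32 in the other 21 heifers, on the log2(CPM + 1) scale.

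CLK1, which phosphorylates SR proteins and controls the splicing of its own transcript, fell in the AI group from 319 to 563 CPM (median 463) to 266 to 351 CPM (median 304). Its log2 fold change was -0.54 ± 0.11 (edgeR adjusted p = 0.00302). TRA2B fell there from 231 to 289 CPM (median 253) to 199 to 241 CPM (median 220), a change of -0.21 ± 0.05 (adjusted p = 0.0164). Both fell in 8 of 8 AI heifers. In the IVP-Normal group, CLK1 had -0.11 ± 0.15 (adjusted p = 0.808) and TRA2B -0.19 ± 0.08 (adjusted p = 0.307), so that neither passed.

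In the AI group, 1 of the 40 genes was thus higher and 2 were lower on D105, with 7.21% of all genes higher and 2.73% lower. With heifer as a block, which uses the pairing of the 2 libraries of each animal, 5 genes passed, 1 higher and 4 lower, with 10.2% and 6.89% of all genes. The added ones were PNN, a protein of speckles and of desmosomes (-0.17 ± 0.05 without the block, adjusted p = 0.0459 with it), and RSRC1 (-0.25 ± 0.10, adjusted p = 0.0377 with it). The median change of the 40 genes in the AI group was -0.06, with 8 of them above 0. In the IVP-Normal group 1 of the 40 was higher and 0 were lower (2.27% and 0.184% of all genes), and the median change was 0.02. This is the only group with both days in the same library set.

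In the IVP-LOS group 0 of the 40 genes were called by edgeR (0.251% of all genes). DESeq2 called 1, SRPK2, beside 322 of all 15163 genes. At an unadjusted p under 0.05 there were 13 of the 40, beside 1911 of all 15163 genes tested. The median change was 0.10, with 35 of the 40 genes above 0. Without 604 and 664 it was 0.05, with 2 of the 40 genes at an unadjusted p under 0.05, beside 1356 of all 15233. LUC7L3 had the change with the next smallest p (0.72 ± 0.25, adjusted p = 0.225). Per heifer, the mean change of the 40 genes was 0.52 in 604 and 0.46 in 664, and between -0.25 and 0.28 in the other 21, of which 12 were above 0. Neutrophil markers moved with day in the same libraries: 4 of 4 measured rose in the AI group, with a median log2 change of 2.91, and 3 of 4 in the IVP-Normal group, with a median of 2.43. Their part in the changes of SRPK2, CLK1 and TRA2B was not tested.

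Between the types of pregnancy no gene passed the threshold with edgeR on either day. On D55, 0 of the 40 and 0% of all genes were called by edgeR between IVP-Normal and AI, between IVP-LOS and AI, and between IVP-LOS and IVP-Normal. At an unadjusted p under 0.05 there were 2, 8 and 0 of the 40 in these comparisons, beside 1522 of all 15350, 1179 of 15236 and 802 of 15452 genes tested. DESeq2 called 0 of the 40 in each, beside 15, 1 and 3 of all genes. For IVP-LOS against AI the median log2 fold change of the 40 genes was -0.08, against 0.01 over all genes, with 6 of the 40 above 0, and 5 above 0 without 604 and 664. PNISR and LUC7L3 had the smallest p in both comparisons with AI. PNISR was at 260 to 376 CPM in the AI group (median 305), at 228 to 334 CPM in IVP-Normal (median 270) and at 238 to 291 CPM in IVP-LOS (median 272). The ranges overlapped, and the log2 fold changes against AI were -0.21 ± 0.10 and -0.20 ± 0.06 (edgeR adjusted p = 0.503 and 0.636). LUC7L3 had -0.27 ± 0.13 and -0.32 ± 0.10, with the same adjusted p. The 2 comparisons share the AI heifers. Between the IVP groups, CLK2 (-0.12 ± 0.06) and SRPK2 (-0.15 ± 0.08) had the smallest p (adjusted p = 0.839 for both).

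On D105 edgeR called 0 of the 40 genes and 0% of all genes in the same 3 comparisons, with 5, 3 and 1 of the 40 at an unadjusted p under 0.05, beside 1477 of all 15437, 880 of 15283 and 501 of 15484 genes tested. DESeq2 called 0 of the 40 in each, beside 3, 11 and 4 of all genes. CLK2 (0.23 ± 0.10) and SRSF3, the smallest SR protein (0.17 ± 0.07), came nearest for IVP-Normal against AI (edgeR adjusted p = 0.514 for both). For IVP-LOS against AI they were LUC7L3 (0.67 ± 0.28) and RSRC1 (0.62 ± 0.26), with adjusted p = 0.754, and the median over the 40 genes was 0.14. Without 604 and 664 this median was 0.05, and 0 of the 40 genes had an unadjusted p under 0.05, beside 483 of all 15347. PRRC2C (0.34 ± 0.14) and SON (0.15 ± 0.08) came nearest for IVP-LOS against IVP-Normal (adjusted p = 0.999). IVP-Normal libraries on D105 came from the other set, so that group and set cannot be told apart in the comparisons with them.

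The change from D55 to D105 was also compared between the groups, with heifer as a block. Of the 40 genes 0 were called, with 0% of all genes, for IVP-Normal against AI, for IVP-LOS against AI and for IVP-LOS against IVP-Normal. At an unadjusted p under 0.05 there were 5, 19 and 0 of the 40, beside 1003 of all 16096, 1674 of 16018 and 449 of 16181 genes tested. DESeq2 called 0 of the 40 in each, beside 1, 0 and 0 of all genes. In the comparison of IVP-LOS with AI the median difference in change was 0.21, with 38 of the 40 genes above 0, led by CLK1 (0.42 ± 0.12) and LUC7L3 (0.79 ± 0.26), with adjusted p = 0.474 for both. Without 604 and 664 the median was 0.12, and 4 of the 40 genes had an unadjusted p under 0.05, beside 808 of all 16028. For IVP-Normal against AI, CLK1 (0.44 ± 0.15) and PNISR (0.36 ± 0.12) had the smallest p (adjusted p = 0.754). For IVP-LOS against IVP-Normal these were PRRC2C (0.34 ± 0.18) and SRSF11 (0.34 ± 0.19), with an adjusted p that rounded to 1.

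**Figure D3:**
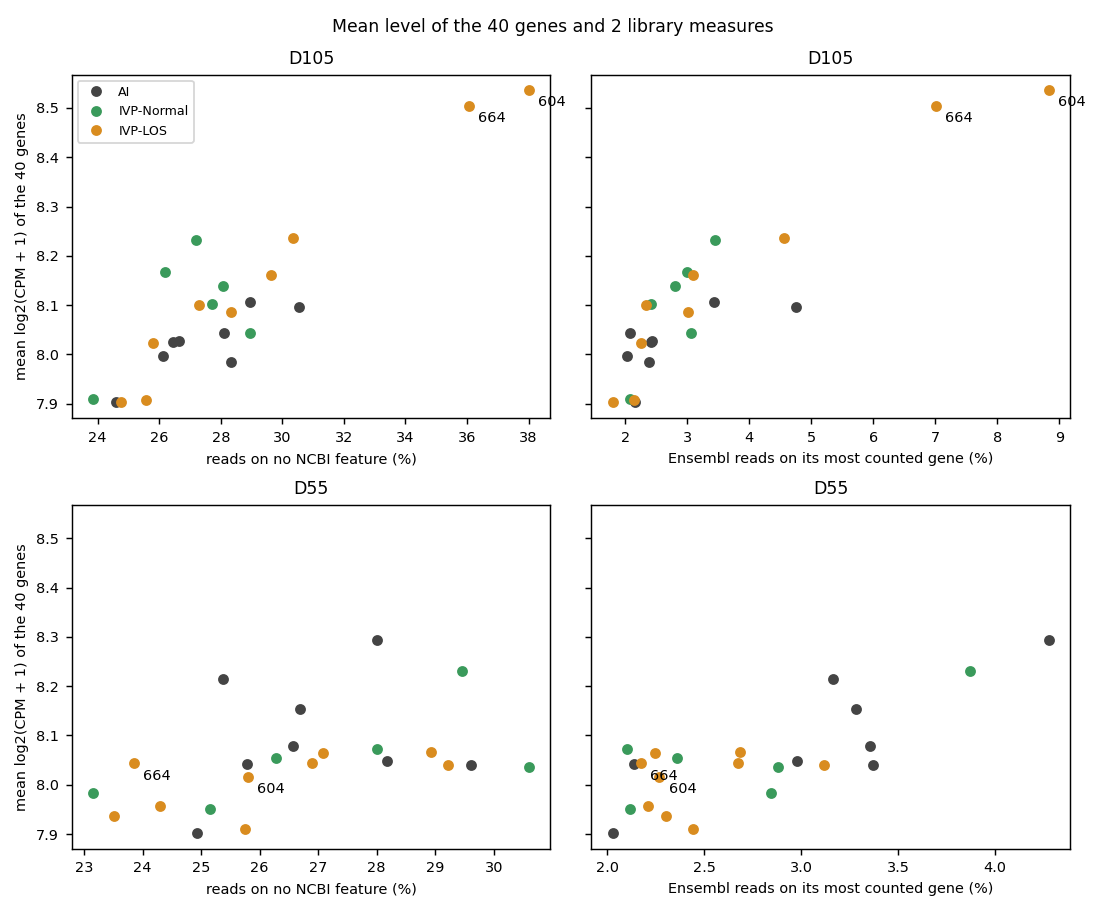
Mean log2(CPM + 1) of the 40 genes in each library against the share of reads on no RefSeq gene (left) and the share of Ensembl reads on its most counted gene (right), on D105 (top) and D55 (bottom), coloured by type of pregnancy. On D105 heifers 604 and 664 lie at 8.536 and 8.504, to the right of and above the other 21 (7.90 to 8.24). On D55 they lie among the others.

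The share of reads on no RefSeq gene varied among the other heifers too, and the 40 genes were set against it there. Over the 21 heifers other than 604 and 664 on D105, 37 of the 40 genes had a positive slope, with a median of 0.034 log2 units per percentage point. The median over all genes was 0.000134. Of the 40 genes 7 rose with the share and 0 fell, while 0.409% of all genes rose and 36 of 14189 fell. SRSF11 had the smallest p (slope 0.088 ± 0.013, edgeR adjusted p = 0.00355), followed by LUC7L (0.142 ± 0.026, adjusted p = 0.0279), PRPF38B (0.097 ± 0.018, adjusted p = 0.0279) and RBM25 (0.072 ± 0.013, adjusted p = 0.0279). PNISR, RBM6, an RNA-binding regulator of splicing, and LUC7L3 were the other 3.

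SRPK2, PRRC2C and RSRC1 did not pass here, and whether their slopes differ from those of the other genes was not tested. SRPK2 had -0.005 ± 0.032 (edgeR adjusted p = 0.946) and PRRC2C 0.017 ± 0.017 (adjusted p = 0.590), and RSRC1 0.059 ± 0.029 (adjusted p = 0.252). The heifer with the highest share among the 21 was at 30.5%, so that 604 and 664 lay outside the range over which these slopes were measured. Without the 2 heifers farthest from the median share, 3 of the 7 genes passed (LUC7L, PNISR and SRSF11), and within the BACKUP libraries alone 14 genes did. Over all genes, 22 of 14050 and 550 of 13969 rose in these fits, in place of 58 of 14189. With the share on no Ensembl gene in place of that on no RefSeq gene, 0 of the 40 and 0 of all genes passed. At an unadjusted p under 0.05 there were 5 of the 40, beside 1009 of all 14189.

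On D55, over all 23 heifers, 36 of the 40 genes had a positive slope on the share of reads on no RefSeq gene, with a median of 0.025 per percentage point. NKTR, PRRC2C and RBM6 rose with it and SRSF2 fell, so that 3 were higher and 1 lower, against 0.884% and 1.32% of all genes. PRRC2C had a slope of 0.060 ± 0.014 (edgeR adjusted p = 0.0285) and SRSF2 of -0.049 ± 0.012 (adjusted p = 0.0331). RBM6 had 0.034 ± 0.008 (adjusted p = 0.0287) and NKTR 0.043 ± 0.011 (adjusted p = 0.0353). RBM6 was the one gene that passed on both days. Without the 2 heifers farthest from the median 0 of the 40 genes passed, with 18 at an unadjusted p under 0.05. Over all genes, 3 of 14189 passed in that fit, in place of 311 of 14136, with 1775 at an unadjusted p under 0.05. Without 604 and 664, 1 of the 40 passed, while 50 of all 14201 genes rose and 53 fell.

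**Figure D4:**
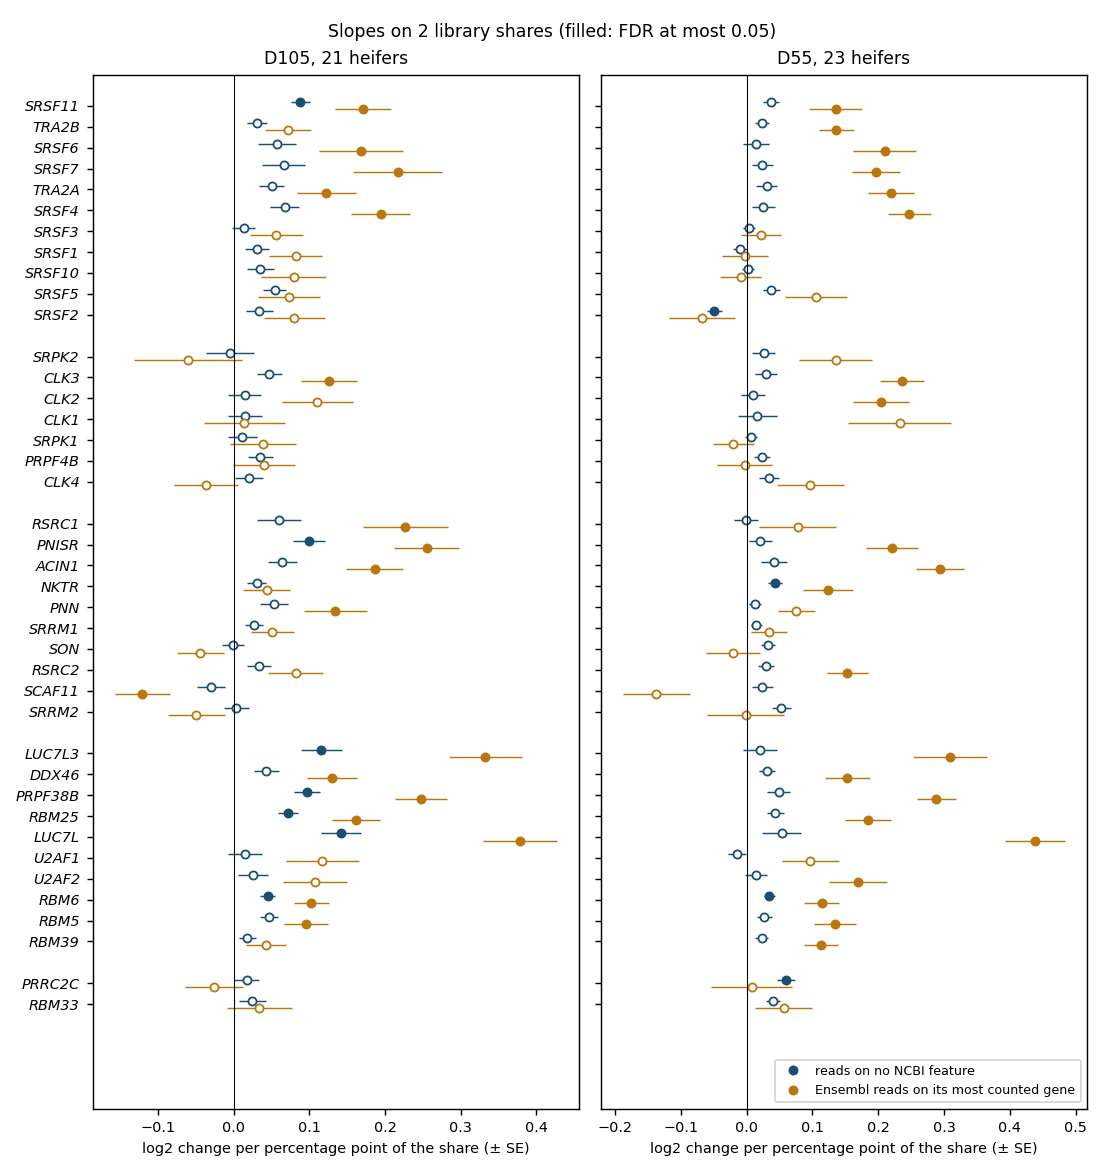
Slope of each of the 40 genes, in log2 units per percentage point ± SE, on the share of reads on no RefSeq gene (blue) and on the share of Ensembl reads on its most counted gene (ochre), for 21 heifers on D105 (left) and 23 heifers on D55 (right). Filled points passed an FDR of 0.05. LUC7L, LUC7L3 and PNISR have the steepest ochre slopes on D105 and LUC7L on D55, while those of SRPK2 and PRRC2C lie near or below 0 on D105.

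The 40 genes were also set against the share of Ensembl reads on ENSBTAG00000043561, a measure chosen after the data were seen. Over the 21 heifers on D105, 17 of the 40 genes rose with it, against 6.54% of all genes. SCAF11 alone fell (-0.121 ± 0.037, edgeR adjusted p = 0.0342), beside 934 of all 14189 genes. LUC7L had the steepest slope, 0.379 ± 0.049 (adjusted p = 0.000916), followed by LUC7L3 (0.333 ± 0.048, adjusted p = 0.00131), PNISR (0.255 ± 0.043, adjusted p = 0.00286) and PRPF38B (0.248 ± 0.034, adjusted p = 0.000916). RSRC1 was among the 17 (0.227 ± 0.056, adjusted p = 0.0132). SRPK2 (-0.061 ± 0.071, adjusted p = 0.603) and PRRC2C (-0.026 ± 0.038, adjusted p = 0.687) were not.

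In the D55 libraries 21 of the 40 genes rose with that share and 0 fell, against 5.94% of all genes that rose and 620 of 14136 that fell. On that day 604 and 664 were within the range of the others on this share. LUC7L (0.438 ± 0.046, edgeR adjusted p = 4.95e-06) and PRPF38B (0.288 ± 0.030, adjusted p = 4.95e-06) had the smallest adjusted p. ACIN1, an RS-rich protein of the exon junction, followed at 0.293 ± 0.036 (adjusted p = 3.46e-05). RSRC1 did not pass on D55 (0.077 ± 0.059, adjusted p = 0.451), and SRPK2 had 0.135 ± 0.055 (adjusted p = 0.121). In all, 15 genes rose with the share on both days. Without the 2 heifers farthest from its median, 17 genes rose and SCAF11 fell on D105, and 4 rose on D55, namely ACIN1, LUC7L, PRPF38B and SRSF4. Over all genes, 1292 of 14087 rose and 1091 fell in this fit on D105, and 26 of 14206 rose on D55. Within the BACKUP libraries of D105, 11 of the 40 genes rose and SCAF11 fell, beside 709 of all 13969 genes that rose and 818 that fell.

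**Figure D5:**
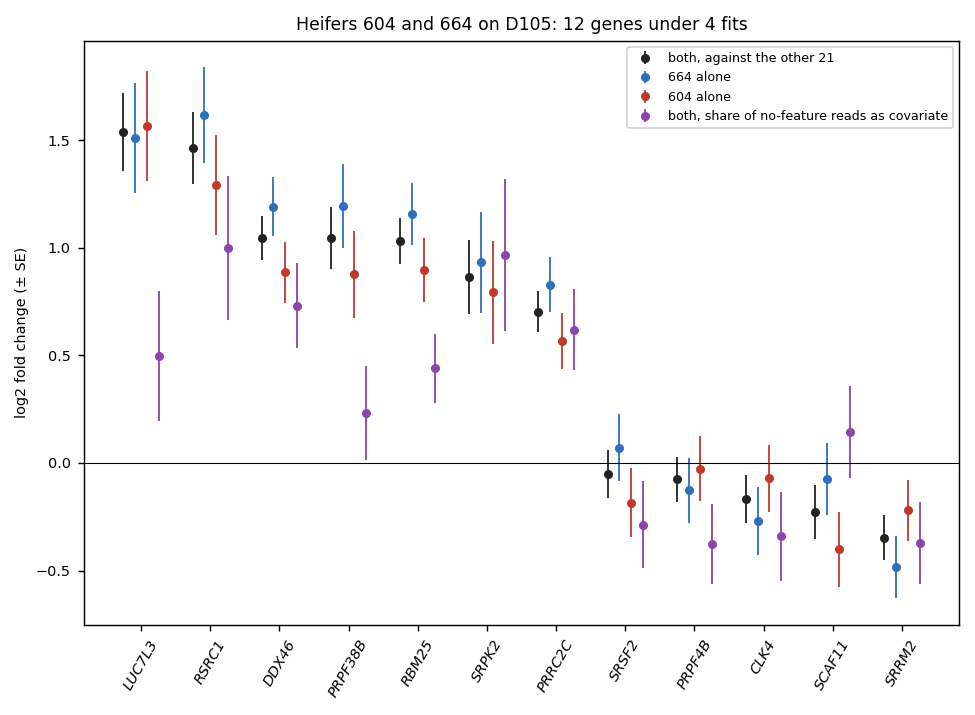
Log2 fold change ± SE of 12 genes in 604 and 664 against the other 21 heifers on D105, for both heifers (black), 664 alone (blue), 604 alone (red), and both with the share of reads on no RefSeq gene as a covariate (purple). With the covariate LUC7L3, PRPF38B and RBM25 drop to 0.50, 0.23 and 0.44, while SRPK2 and PRRC2C are at 0.97 and 0.62.

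With the share of reads on no RefSeq gene added as a covariate to the D105 contrast of 604 and 664, 0 of the 40 genes and 0 of all genes were called. At an unadjusted p under 0.05 there were 8 of the 40 genes, beside 1825 of all 16841. The median log2 fold change of the 40 genes was -0.02 in place of 0.39. The genes differed in how far they moved. LUC7L3 went from 1.54 to 0.50 ± 0.30, PRPF38B from 1.04 to 0.23 ± 0.22, PNISR from 0.99 to 0.11 ± 0.24 and SRSF11 from 0.99 to 0.27 ± 0.18. LUC7L changed sign, from 0.91 to -0.41 ± 0.29. RSRC1 went from 1.46 to 0.999 ± 0.34, DDX46 from 1.05 to 0.73, PRRC2C from 0.70 to 0.62 ± 0.19, TRA2B from 0.69 to 0.48 and U2AF1 from 0.48 to 0.42. SRPK2 went up, from 0.86 to 0.97 ± 0.35. As 604 and 664 lie beyond all other heifers on this share, the fit extends the slope of the others to where no other library was measured, and the heifers and the share cannot be told apart.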

How the data were processed

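Leukocyte RNA of 23 heifers was sequenced on D55 and D105 (46 libraries, paired ends). Per the methods of the study, reads were trimmed, aligned with HISAT2 2.1.0 to ARS-UCD1.2 and counted with HTSeq-count in union mode. The authors deposited unnormalised counts of reads for each gene, in a RefSeq table and an Ensembl table. The RefSeq table was used, and summary lines entered only the share of reads on no gene, taken over gene, no-gene and ambiguous reads. Each value column was matched to 1 sample by its label. The strand setting of the counting is not given in the sources used here, and reads shared between paralogs were not examined. Depth was 18692653 to 24502012 reads on RefSeq genes per library.

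Counts were tested here in R 4.3.3 with edgeR 4.0.16 (TMM, filterByExpr with a minimum count of 10, quasi-likelihood F-test, Benjamini-Hochberg adjustment over all genes tested, FDR at most 0.05), fitting only the libraries compared. Slopes used the share as a continuous term, and fitted fold changes carry standard errors. The scripts were tested on simulated counts. DESeq2 1.42.0 and other settings are given in the closing section. The 2 libraries of a heifer come from the same animal. The correlation of their deviations from the group means, across genes with a mean of at least 1 CPM, was 0.288 to 0.842 in the 23 heifers (median 0.575). Tests without a block treat these libraries as independent.

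The genes and lists were chosen with earlier results of these data known. Genes named in each comparison are RSRC1, SRPK2 and PRRC2C for 604 and 664, the 5 largest and 5 smallest log2 fold changes in these heifers on D105, and elsewhere up to 6 called genes with the smallest FDR, or the 2 with the smallest p where none was called. Other genes illustrate their role and were chosen after their values were seen. Ensembl identifiers were not matched to names, and no sequences were used here.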

Additional observations from a re-analysis of the deposited data

Results flagged for a closer look

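The mean log2(CPM + 1) over the 40 genes, the mean of each of the 5 roles, 2 library shares and 12 named genes were searched for a library far from the rest of its group, in 120 sets. Chance alone flags about 1 in 20 sets, or 6 of 120, and 5 were found. All 5 were on D55. In the IVP-Normal group, heifer 628 had the highest mean over the splice site factors, at 8.06 against 7.81 in the next heifer, and the highest PRPF38B, at 266 CPM against 192 CPM. Heifer 560 of the same group had the lowest SRRM2, at 1763 CPM, with the next at 2437 CPM. In the AI group, heifer 546 had the highest PRRC2C, at 631 CPM, with the next at 531 CPM. In the IVP-LOS group, heifer 656 had the lowest mean over RBM33 and PRRC2C, at 8.29 against 8.55 in the next. Heifers 604 and 664 were not found by this search on D105. The search measures the gap between the most extreme library and the next one in its group. Both heifers are in the IVP-LOS group, so it cannot find them where they are extreme together.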

How the results depend on the processing

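The counts of the 40 genes called were recomputed under 100 alternatives, and 79 stayed within 1.5 times the reported count. Most of these 79 were counts of 0 that stayed 0, as in each comparison between types of pregnancy and for 604 and 664 on D55. The 79 therefore say little about the comparisons in which genes were called. For 604 and 664 against the other 21 on D105 the count of 22 became 11 to 15 with 1 of the 2 left out, 14 against the other IVP-LOS heifers and 0 with the share of no-gene reads as a covariate. For D105 against D55 in the AI group the count of 3 became 5 with upper-quartile scaling, 5 with DESeq2 and 5 with heifer as a replicate block. Over all 15248 genes, 1517 calls became 1675, 1964 and 2603 in these fits. Between days in the IVP-LOS group DESeq2 called 1 of the 40 in place of 0, beside 322 of all 15163 genes in place of 38. The block changed no other count of calls among the 40 genes by more than 1.5 times.

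For the slope on D105 the count of 7 became 4 with no filter on low counts, 11 with DESeq2, 3 without the 2 farthest heifers, 2 with the share over all lines of the table and 14 in the BACKUP set. It was 0 with the share on no Ensembl gene. With the share on the most counted Ensembl gene it was 18, and 18 without the 2 farthest heifers or 12 in the BACKUP set. Calls over all genes moved too, from 94 of 14189 to 898 with DESeq2 and 1152 of 13969 in the BACKUP set. They were 39 of 24427 with no filter, 83 of 14050 without the 2 farthest heifers and 9 of 14189 with the share over all lines. With the share on no Ensembl gene they were 0. With the share on the most counted Ensembl gene they were 1862, and 2383 of 14087 without the 2 farthest heifers or 1527 of 13969 in the BACKUP set. For the slope on D55 the count of 4 became 1 with no filter, 9 with DESeq2, 0 without the 2 farthest heifers and 1 without 604 and 664. With the share on the most counted Ensembl gene it was 21, and 4 without the 2 farthest heifers. Calls over all genes on D55 moved from 311 of 14136 to 195 of 24513 with no filter and 694 with DESeq2. They were 3 of 14189 without the 2 farthest heifers, and without 604 and 664, 50 of 14201 rose and 53 fell. With the share on the most counted Ensembl gene they were 1459, and 30 of 14206 without the 2 farthest heifers. The cause of these differences was not tested, and the shares other than the planned 2 were chosen after seeing the data.

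Among named genes, 13 of 378 values changed sign. A further 44 kept their sign but lost the call, and 1 gained it. SCAF11 in 604 and 664 on D105 was 0.14 with the covariate, and SRSF2 ran from -0.19 to 0.071 with 1 of the heifers left out. On D55, RSRC1 ran from -0.019 to 0.33, SRPK2 from -0.075 to 0.028 and PRRC2C from -0.13 to 0.032 when 1 heifer was left out. SRPK2 was 0.060 against the other IVP-LOS heifers and 0.022 with the covariate, and PRRC2C was 0.073 with the covariate. With the share on no Ensembl gene, the D105 slopes of LUC7L (-0.037), PRPF38B (-0.014), RBM25 (-0.0064) and PNISR (-0.0018) were below 0. The D55 slope of PRRC2C was -0.0085 on the share of the most counted Ensembl gene without the 2 farthest heifers. SRPK2 in the pair on D105 lost its call without 664, and SRRM2 without either heifer. SRPK2 passed in the IVP-LOS day comparison with DESeq2 only. The Ensembl table was not run for these genes, since its identifiers were not matched to names.

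With 1 heifer left in the pair, its spread is taken to be like that of the others. Calls over all genes fell in these D105 fits too, so nothing is read from their counts of calls. The median log2 fold change of the 40 genes was 0.30 without 604 and 0.43 without 664. Over all genes it was -0.05 and -0.07. Depth limits RSRC1 most, with 237 to 866 reads per library.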
